A study of Mus musculus with 24 samples.

Results

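The jejunum of germ-free mice, which live without any microbes, was compared with the jejunum of conventional mice, which carry a microbiota, on 6 of the 24 Affymetrix arrays of the study. The germ-free group held 3 arrays and the conventional group 3, chosen by their titles. The other 18 arrays measured the corpus of the stomach, the descending colon and the rectum of the same kinds of mice. RNA came from whole-thickness tissue, and the jejunum was taken as the small intestine without a short piece at each end, so that it spanned most of the length of that tube. The sources used here did not give strain, age, sex, diet or the hour of dissection. Of the 12422 probe sets that are not controls, 9033 passed a filter on low signals and were tested. Signals are linear intensities that the authors scaled to a common level, and differences were taken as log2 of the signal with values under 21.2 set to that floor. A fold is thus on the floored scale, and it is a lower bound, written with "at least", where no array of the lower group exceeded the floor.

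The jejunum absorbs most dietary fat, sugar and amino acids. Its enterocytes bind fatty acids with the carriers Fabp1 and Fabp2, pack them with apolipoproteins into chylomicrons, and burn part of them in mitochondria and peroxisomes under the control of the nuclear receptor PPAR alpha, encoded by Ppara. The same epithelium meets microbes: it secretes lectins of the Reg3 family that bind bacteria, carries IgA from plasma cells of the lamina propria into the lumen through the receptor encoded by Pigr, and lies over leukocytes whose number in the gut is known to depend on the microbiota.

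Markers of the small intestine and of neighbouring organs were read on each array before any comparison. Apoa4, an apolipoprotein of chylomicrons, was at 12194, 7680.2 and 6917 on germ-free arrays 1 to 3 and 5630.0, 5207 and 13.8 on conventional arrays 1 to 3. Fabp2, the intestinal fatty acid binding protein, was at 9089, 7263 and 11375 on germ-free arrays 1 to 3 and 6163, 13283 and 226 on conventional arrays 1 to 3. Both markers were high on 5 arrays and low on conventional array 3 alone. Car1, a carbonic anhydrase of the colon, was at 8.2, 5.2 and 6.6 on germ-free arrays 1 to 3 and 10, 66.5 and 3289.7 on conventional arrays 1 to 3, and Hoxb13, a homeobox gene of the hindgut, at 43.2, 30.4 and 55.7 on germ-free arrays 1 to 3 and 43.8, 109 and 1626 on conventional arrays 1 to 3. The library labelled conventional jejunum 3 therefore had the colonic markers high and the small intestinal ones low. Over the 15 acinar pancreas probe sets tested, which include genes that the gut also expresses such as Zg16, Sycn and Reg1, the summed signal was 14108, 20328 and 18993 on the germ-free arrays and 9115, 13722 and 73128 on the conventional arrays. Cela1, a pancreatic elastase, was at 192, 1836 and 1153 on germ-free arrays 1 to 3 and 99.2, 299.8 and 8528 on conventional arrays 1 to 3. In conventional descending colon Cela1 ran from 2324.3 to 2950.5, so a high value does not by itself mark acinar tissue. Cela2a, another elastase, was at 60.4, 233.5 and 239.4 on germ-free arrays 1 to 3 and 58.8, 48 and 359.7 on conventional arrays 1 to 3. Array 3 of the conventional group thus stood highest in the acinar sum, in Cela1 and, by a smaller margin, in Cela2a. Atp4b, a subunit of the gastric proton pump, was at 10.1, 5.6 and 401 on germ-free arrays 1 to 3 and 5, 7.5 and 6.1 on conventional arrays 1 to 3, above the floor on germ-free array 3 alone. The summed signal of 16 gastric gland probe sets was 4418, 4258 and 10695 on the germ-free arrays and 3453, 2962 and 5941 on the conventional arrays. Values are given below with all 6 arrays as labelled and again without conventional jejunum 3. The second fit also left out conventional rectum 1 and germ-free corpus 3, whose region markers opposed their labels. These last arrays enter a jejunum difference only through the spread that all groups share.

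**Figure D1:**
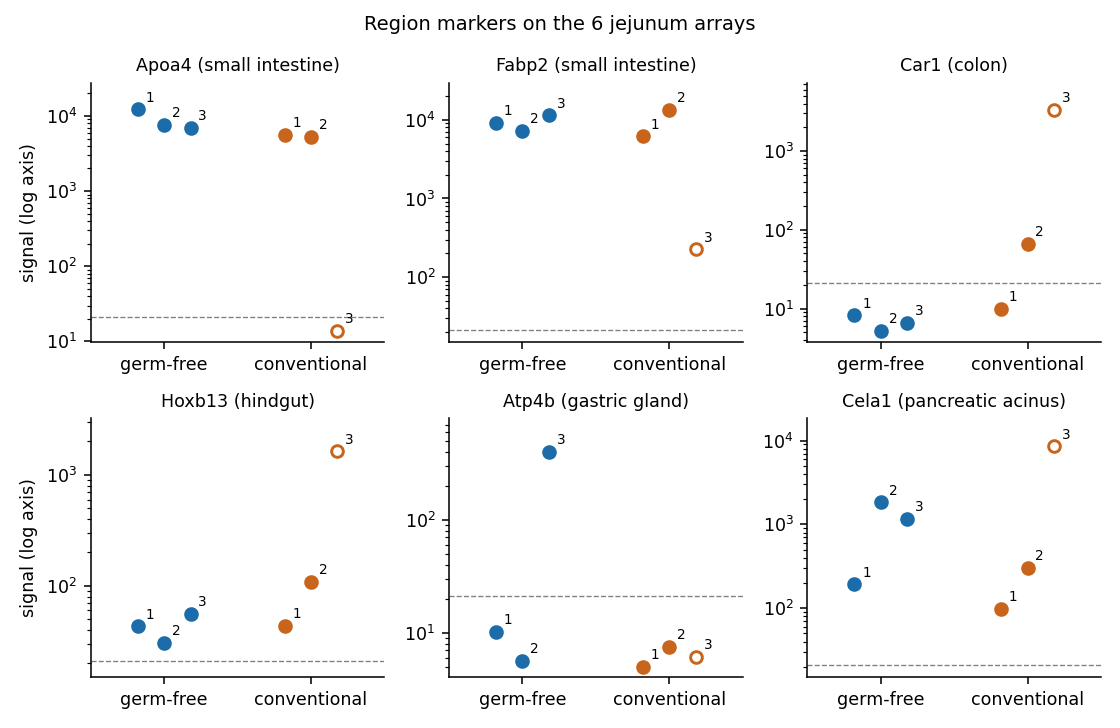
Signal (log axis) of 6 region markers on each jejunum array, germ-free on the left and conventional on the right, with the array number beside each point and the floor as a dashed line. The open circle is conventional jejunum 3, with Apoa4 at 13.8 and Car1 at 3289.7, and Atp4b lies above the floor only on germ-free jejunum 3.

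Median signals of the jejunum arrays ran from 68.6 to 88.4, the highest on germ-free array 3, and the share of signals that did not exceed the floor was 21.3% to 27.9%. The 3′ over 5′ signal ratio of Gapdh, a sign of RNA quality, ran from 0.756 to 0.994. On the log2 scale, conventional jejunum 3 correlated at 0.816 to 0.848 with the other 5 jejunum arrays, which correlated with each other at 0.911 to 0.95. The labels state that all 4 tissues were taken from each mouse but not which arrays share a mouse or whether the arrays of a group came from separate mice. The p-values thus measure the spread between these arrays, which may be technical.

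With all 6 arrays, limma called 42 of 9033 probe sets at an adjusted p under 0.05, 0.465% of those tested. In germ-free jejunum 20 (0.221%) were higher and 22 (0.244%) lower. Without conventional jejunum 3 it called 51, or 0.565%, with 26 (0.288%) higher and 25 (0.277%) lower. The readings shared 23 calls, all in the same direction, 13 higher and 10 lower. When conventional jejunum 3 alone was left out and the shared spread came from all the other 23 arrays, 10 probe sets were called. These 10 were all among the 23, and their named genes were Slc5a11, Pex11a, Ddx6, Csnk2a1, Nfatc3 and Smarcc1 among the higher and Ckap4, Urod and Nfkbiz among the lower, a list read after its values were seen. Germ-free array 3 had the opposite effect on the count: without it, 265 probe sets were called as labelled (2.93%). Of these 61 (0.675%) were higher and 204 (2.26%) lower. In that fit 42.8% of all 9033 log2 differences lay above 0, with a median of -0.07. The median signal was 68.6 and 68.9 on germ-free arrays 1 and 2 and 88.4 on germ-free array 3. With conventional jejunum 3 left out too, 272 were called (3.01%), 68 (0.753%) higher and 204 (2.26%) lower. The last 2 fits shared 190 calls, all in the same direction. Of the 42 labelled calls, 8 held in each of the 6 fits that left out 1 jejunum array: Slc5a11, Ckap4, Smarcc1, Pex11a, Csnk2a1, Urod, Ddx6 and Nfatc3. Of the 51, 5 held in each of 5 such fits: Slc5a11, Ckap4, Saa2, Gsta4 and Nfkbiz. Every other call was lost without at least 1 array.

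**Figure D2:**
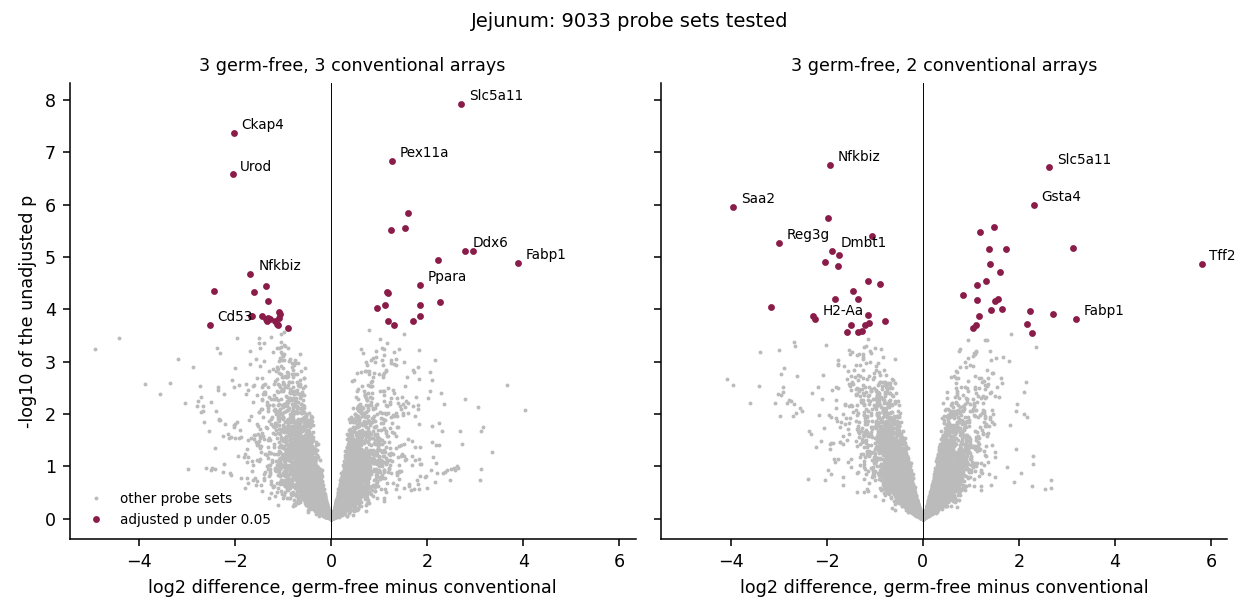
Each point is 1 of 9033 probe sets, with the log2 difference germ-free minus conventional on the x axis and -log10 of the unadjusted limma p on the y axis, for all 6 arrays (left) and without conventional jejunum 3 (right). Dark points passed an adjusted p under 0.05, 42 on the left and 51 on the right, and Slc5a11 lies far to the upper right in both panels.

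Several genes of fat handling rose in germ-free jejunum. Fabp1, the liver-type fatty acid binding protein, was at 2383, 458 and 499.8 on germ-free arrays 1 to 3 and 224, 35.6 and 1.5 on conventional arrays 1 to 3. Every germ-free array lay above every conventional one, germ-free array 1 far above the rest, and conventional array 3 lay under the floor. The log2 difference was 3.89 ± 0.68 (SE; adjusted p = 0.0106) with all 6 arrays and 3.19 ± 0.67 (adjusted p = 0.0349) without conventional jejunum 3, which is 14.8-fold and 9.15-fold higher. The call was lost in 3 of the 6 fits that left out 1 of the labelled arrays, among them the fit without conventional jejunum 3 alone (adjusted p = 0.0883). Ppara itself was at 800.4, 457 and 445 on germ-free arrays 1 to 3 and 188, 198 and 93.9 on conventional arrays 1 to 3. The groups did not overlap. On the log2 scale the groups differed by 1.85 ± 0.35 (SE; adjusted p = 0.0231) with all 6 arrays and 1.50 ± 0.29 (adjusted p = 0.0209) without conventional jejunum 3. With 23 arrays Ppara did not pass (adjusted p = 0.127). Pex11a, which drives the division of peroxisomes, was at 353, 382 and 305 on germ-free arrays 1 to 3 and 151, 149.9 and 132 on conventional arrays 1 to 3. Both groups were tight, with a clear gap between them, and conventional array 3 lay near its companions. Germ-free minus conventional, in log2 units, gave 1.26 ± 0.16 (SE; adjusted p = 0.000438) with all 6 arrays and 1.20 ± 0.18 (adjusted p = 0.00438) without conventional jejunum 3, and the first of these calls held in all 6 fits that left out 1 array. Acaa2, the thiolase that ends mitochondrial beta-oxidation, was at 6363, 5204 and 4634 on germ-free arrays 1 to 3 and 2082, 2735 and 1763 on conventional arrays 1 to 3, again without overlap. In log2 terms the difference came to 1.31 ± 0.33 (SE, adjusted p = 0.0818) with all 6 arrays and 1.17 ± 0.24 (adjusted p = 0.0324) without conventional jejunum 3. With 23 arrays Acaa2 did not pass (adjusted p = 0.297).

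The list of fatty acid oxidation and PPAR alpha target genes had 30 probe sets tested, for 26 of its 34 genes. With all 6 arrays 3 of them rose (Fabp1, Ppara and Pex11a) and 0 fell, and 25 lay above 0 with a median log2 difference of 0.45. Over all 9033 probe sets, 47.7% lay above 0 as labelled and 49.7% without conventional jejunum 3, with medians of -0.02 and -0.004. When conventional jejunum 3 was left out, 4 rose, the same genes and Acaa2, and 25 again lay above 0 with a median of 0.35. Of these 4, only Pex11a also passed with 23 arrays (adjusted p = 0.00679). Germ-free arrays lay wholly above conventional ones for 12 of the 30 probe sets with 6 arrays and 13 without conventional jejunum 3, and wholly below for 0 in each case. The same holds for 6.9% (above) and 8.47% (below) of all probe sets tested with 6 arrays, and for 11.0% and 12.9% without conventional jejunum 3.

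Promoters are shown for 3 genes picked by hand from those that rose in both readings and have an entry in the RefSeq promoter table (GRCm38.p6): Fabp1 at chr6:71199629-71199878 (+ strand), Slc5a11 at chr7:123214616-123214865 (+ strand) and Pex11a at chr7:79743132-79743381 (- strand). Windows of the other genes that rose in both readings are not shown. Each line gives the 250 bases before the annotated start, 5′ to 3′ on the gene's own strand. Capitals mark AGGTCA, the half-site read by nuclear receptors such as PPAR alpha, and its direct repeat with 1 base between, AGGNCANAGGNCA, both searched on both strands.
Fabp1: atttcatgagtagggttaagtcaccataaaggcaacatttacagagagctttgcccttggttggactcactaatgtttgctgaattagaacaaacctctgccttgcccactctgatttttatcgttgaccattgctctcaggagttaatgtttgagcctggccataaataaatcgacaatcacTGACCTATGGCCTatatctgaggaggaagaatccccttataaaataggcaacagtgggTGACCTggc
Slc5a11: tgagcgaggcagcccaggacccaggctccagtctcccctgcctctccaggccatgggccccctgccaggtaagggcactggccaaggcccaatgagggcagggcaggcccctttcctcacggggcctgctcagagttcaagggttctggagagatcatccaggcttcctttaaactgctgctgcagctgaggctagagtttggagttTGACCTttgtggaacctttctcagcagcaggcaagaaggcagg
Pex11a: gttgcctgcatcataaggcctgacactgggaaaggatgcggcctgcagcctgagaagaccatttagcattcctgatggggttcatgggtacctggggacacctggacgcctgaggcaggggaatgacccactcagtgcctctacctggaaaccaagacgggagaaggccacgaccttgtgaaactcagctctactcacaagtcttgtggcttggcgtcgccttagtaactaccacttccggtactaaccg
The Fabp1 window held the half-site at 4 to 9 and at 62 to 67 bases before the start, and the second of these overlapped a direct repeat at 55 to 67 bases, all on the other strand. The Slc5a11 window held 1 half-site at 38 to 43 bases, and the Pex11a window held neither motif. Among 32851 promoter windows of this length, 14.0% held the half-site and 0.338% the direct repeat. A match is a match of letters only.

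Intestinal lipid absorption genes had 1 of 19 probe sets called, Fabp1, in either reading. The list median depended on conventional array 3: it was 1.24 with all 6 arrays and 0.36 without that array. Apoa4 had a log2 difference of 3.34 ± 1.63 (adjusted p = 0.388) with all 6 arrays and 0.68 ± 0.38 (adjusted p = 0.522) without it. Mttp, which loads lipid onto apolipoprotein B, was at 1087, 712 and 616 on the germ-free arrays and 596 and 399 on conventional arrays 1 and 2, against 3.6 on conventional array 3. The groups did not overlap, yet neither reading called it (adjusted p = 0.34 and 0.297). Angptl4, an inhibitor of lipoprotein lipase that the gut is known to make less of when microbes are present, had 3 probe sets with log2 differences between -0.02 and 0.59 as labelled and between -0.17 and 0.24 without conventional jejunum 3. None of them passed the test in either reading (adjusted p of at least 0.52).

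Slc5a11, a sodium-coupled carrier of myo-inositol, had the lowest p of all probe sets as labelled. Its signal was 202, 97.3 and 185 on germ-free arrays 1 to 3 and 28.4, 21.7 and 19.4 on conventional arrays 1 to 3. The lowest germ-free array was more than 3 times the highest conventional one, and all 3 conventional arrays lay close to the floor. The fitted log2 difference was 2.71 ± 0.29 (SE; adjusted p = 0.000107) with all 6 arrays and 2.63 ± 0.33 (adjusted p = 0.000879) without conventional jejunum 3, or 6.54-fold and 6.2-fold higher, and both calls held whichever single jejunum array was left out. Of 21 carrier probe sets, 15 lay above 0 and 6 below as labelled, and 12 above and 9 below without conventional jejunum 3. No other carrier passed in either reading. Slc7a8, a carrier of neutral amino acids, was at 519, 239 and 242 on germ-free arrays 1 to 3 and 148, 103 and 43 on conventional arrays 1 to 3 (adjusted p = 0.117 as labelled, 0.118 without conventional jejunum 3). Slc2a5, the fructose carrier, was at 243, 170.2 and 156 on germ-free arrays 1 to 3 and 118, 74.3 and 26.1 on conventional arrays 1 to 3 (adjusted p = 0.199 and 0.342). For both, each germ-free array lay above each conventional one, and conventional array 3 was the lowest. Over the list, 1 rose and 0 fell in each reading, and the median was 0.76 as labelled and 0.26 without conventional jejunum 3.

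Lactase, the brush border enzyme of milk sugar encoded by Lct, was at 5929, 3221 and 2093 on germ-free arrays 1 to 3 and 1339.8, 694 and 21.1 on conventional arrays 1 to 3. The groups did not overlap, although each spread widely. The log2 difference was 3.66 ± 1.08 (SE; adjusted p = 0.131) with all 6 arrays and 1.83 ± 0.41 (adjusted p = 0.0517) without conventional jejunum 3, so the second reading fell just outside the threshold. Of 15 brush border probe sets none was called by limma in either reading, and 4 had an unadjusted p under 0.05 in each. That p was reached by 13.1% of all probe sets as labelled and 12.1% without conventional jejunum 3. The median of the brush border probe sets was 0.86 as labelled and 0.13 without conventional jejunum 3, and the number above 0 was 13 and 9.

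**Figure D3:**
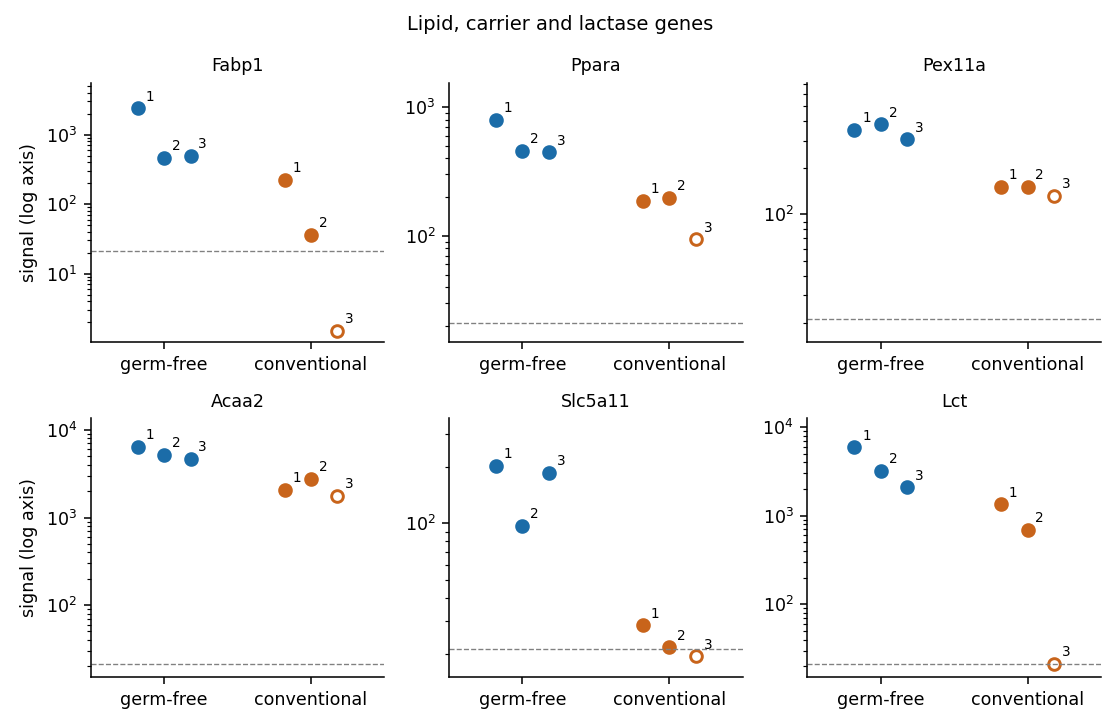
Signal (log axis) of 6 probe sets on each jejunum array, germ-free left and conventional right, array numbers beside the points, floor dashed, conventional jejunum 3 open. For all 6 genes each germ-free array lies above each conventional array; Fabp1 has its top value of 2383 on germ-free array 1.

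Most probe sets of mitochondrial and detoxifying genes lay above 0, with few calls. Of 69 probe sets for subunits of oxidative phosphorylation, 0 passed in limma in either reading (16 and 13 at an unadjusted p under 0.05, beside 13.1% and 12.1% of all probe sets), but 55 lay above 0 as labelled and 52 without conventional jejunum 3, with medians of 0.23 and 0.22. Uqcrh, a subunit of complex III, was at 3151, 2819 and 2933 on germ-free arrays 1 to 3 and 2206, 2150.4 and 2009 on conventional arrays 1 to 3. The groups were apart by a small margin (1.4-fold higher as labelled, adjusted p = 0.12). Of 61 xenobiotic metabolism probe sets, 0 were called as labelled (8 at an unadjusted p under 0.05) and 1 without conventional jejunum 3, Gsta4, with medians of 0.33 and 0.29.

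Gsta4, a glutathione transferase that clears lipid peroxidation products, was at 109, 122 and 93.8 on germ-free arrays 1 to 3 and 22.3, 17.3 and 102 on conventional arrays 1 to 3. Conventional array 3 lay among the germ-free arrays and the other conventional arrays near the floor. On the log2 scale the groups differed by 1.56 ± 0.82 (SE; adjusted p = 0.436) with all 6 arrays and 2.31 ± 0.32 (adjusted p = 0.0025) without conventional jejunum 3. Leaving out any further jejunum array kept the second call, whereas leaving the other doubtful arrays in the fit ended it (adjusted p = 0.345). Cyp4b1, a cytochrome P450, was at 3039.6, 2164 and 1481 on germ-free arrays 1 to 3 and 819, 561 and 239.5 on conventional arrays 1 to 3 and did not pass (adjusted p = 0.0904 as labelled, 0.144 without conventional jejunum 3), although the groups did not overlap. Abcc2, an apical exporter of conjugates, was at 211, 214 and 231 on germ-free arrays 1 to 3 and 95.5, 86.5 and 29.5 on conventional arrays 1 to 3 with the same outcome (adjusted p = 0.0988 and 0.141). Adh1, an alcohol dehydrogenase, was at 2616, 624 and 401 on germ-free arrays 1 to 3 and 156, 186 and 4944 on conventional arrays 1 to 3. Its highest value came from conventional array 3, and without that array the log2 difference was 2.35 ± 0.56 (adjusted p = 0.0774).

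Antimicrobial lectins and acute phase proteins were called in the second reading, which left out conventional jejunum 3, conventional rectum 1 and germ-free corpus 3, and not as labelled or with conventional jejunum 3 alone left out. Probe sets named for the Reg3, serum amyloid A, immunoglobulin and small proline-rich families can bind RNA of several relatives, so their gene names are uncertain. A probe set for Reg3g, a lectin that kills Gram-positive bacteria, was at 117, 333 and 439 on germ-free arrays 1 to 3 and 1547, 2714 and 4.6 on conventional arrays 1 to 3. Conventional arrays 1 and 2 lay far above all germ-free arrays and conventional array 3 far below them, near the level of the descending colon, where conventional arrays reached at most 29.6. Germ-free minus conventional, in log2 units, gave -0.79 ± 1.43 (SE; adjusted p = 0.874) with all 6 arrays and -2.99 ± 0.47 (adjusted p = 0.00528) without conventional jejunum 3, or 7.96-fold lower in the second reading. The other Reg3g probe set was at 589.7, 1546 and 1808 on germ-free arrays 1 to 3 and 6519, 8385 and 13.4 on conventional arrays 1 to 3, with the same order of arrays, and was not called (adjusted p = 0.994 as labelled, 0.215 without conventional jejunum 3). The 2 probe sets for Reg3b, its close relative, had log2 differences of -2.82 ± 0.91 (adjusted p = 0.182) and -1.15 ± 1.01 (adjusted p = 0.74) without conventional jejunum 3.

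Reg3g and Reg3b have annotated starts 98 kb apart on mouse chromosome 6, and the 90 bases before each annotated start are shown because all 4 of their probe sets had every germ-free array below conventional arrays 1 and 2: Reg3g at chr6:78468875-78468964 (- strand) and Reg3b at chr6:78370795-78370884 (+ strand), GRCm38.p6, from RefSeq. Capitals mark the longest run of letters that the windows share, 20 bases.
Reg3g: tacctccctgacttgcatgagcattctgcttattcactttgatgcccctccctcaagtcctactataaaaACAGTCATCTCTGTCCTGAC
Reg3b: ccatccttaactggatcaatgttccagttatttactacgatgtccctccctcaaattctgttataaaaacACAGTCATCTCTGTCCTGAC
Reg3a, another lectin of the family, moved the other way. Its probe set was at 1755, 1474 and 1439 on germ-free arrays 1 to 3 and 588, 531 and 1.4 on conventional arrays 1 to 3, with all germ-free arrays above conventional arrays 1 and 2 and conventional array 3 under the floor. In log2 terms the difference came to 3.05 ± 1.02 (SE; adjusted p = 0.183) with all 6 arrays and 1.47 ± 0.22 (adjusted p = 0.0041) without conventional jejunum 3. A second Reg3a probe set had 1.36 ± 0.39 (adjusted p = 0.144) without conventional jejunum 3.

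Saa2, an acute phase apolipoprotein, was at 49.8, 16.6 and 24.1 on germ-free arrays 1 to 3 and 508, 405 and 3337 on conventional arrays 1 to 3. The germ-free arrays lay near the floor, and conventional array 3 was the highest of all. The fitted log2 difference was -4.91 ± 1.20 (SE; adjusted p = 0.0776) with all 6 arrays and -3.95 ± 0.56 (adjusted p = 0.0025) without conventional jejunum 3, or 15.4-fold lower in the second reading, and that call held in all 5 fits that left out 1 more jejunum array. A second Saa2 probe set kept the same order of groups without a call (adjusted p = 0.542 and 0.538). Dmbt1, a scavenger receptor-like glycoprotein that binds bacteria, was at 1376, 1169 and 956 on germ-free arrays 1 to 3 and 5268, 3434 and 4491 on conventional arrays 1 to 3. All 3 conventional arrays lay above all germ-free ones. The log2 difference was -1.91 ± 0.56 (SE; adjusted p = 0.131) with all 6 arrays and -1.88 ± 0.31 (adjusted p = 0.00528) without conventional jejunum 3. Pglyrp1, which binds peptidoglycan, was at 420.1, 576 and 424 on germ-free arrays 1 to 3 and 1088, 982 and 1109 on conventional arrays 1 to 3, and here too no array overlapped (2.21-fold lower without conventional jejunum 3, adjusted p = 0.0127; adjusted p = 0.184 as labelled).

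Over the 24 probe sets of antimicrobial lectins and acute phase proteins, 0 were called by limma as labelled, with 5 at an unadjusted p under 0.05. In the fit without the 3 libraries, 1 rose (Reg3a) and 4 fell (Saa2, Reg3g, Dmbt1 and Pglyrp1). The median was -0.46 as labelled and -0.48 without conventional jejunum 3, and 14 probe sets had every germ-free array below conventional arrays 1 and 2. That order held for 12.9% of all probe sets tested, and 13.1% of all had an unadjusted p under 0.05 as labelled. None of these 5 calls passed in the fit of 23 arrays: the adjusted p was 0.308 for Saa2, 0.393 for Reg3g, 0.321 for Dmbt1, 0.393 for Pglyrp1 and 0.654 for Reg3a. Products of Paneth cells, the secretory cells at the crypt base, had 0 of 7 called by limma and 0 at an unadjusted p under 0.05 in either reading. Their median was 0.75 as labelled and -0.35 without conventional jejunum 3. Retnlb, a goblet cell protein induced by bacteria, was at 1459, 2265 and 1856 on germ-free arrays 1 to 3 and 4723, 4799 and 8076 on conventional arrays 1 to 3, without overlap and without a call (adjusted p = 0.601 and 0.38).

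**Figure D4:**
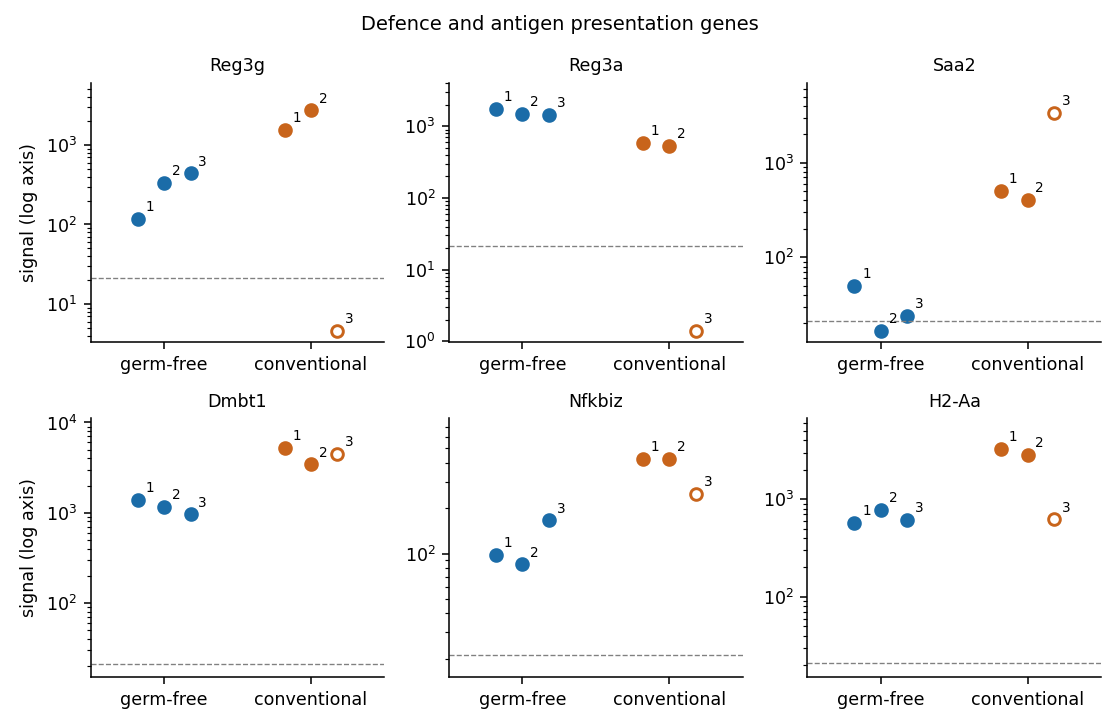
Signal (log axis) of 6 defence and antigen presentation probe sets on each jejunum array, germ-free left and conventional right, array numbers beside the points, floor dashed, conventional jejunum 3 open. Conventional jejunum 3 is the lowest array for Reg3g (4.6) and Reg3a (1.4) and the highest for Saa2 (3337).

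Nfkbiz, which encodes an inducible nuclear partner of NF-kB downstream of microbial sensors, was at 98.2, 84.5 and 166 on germ-free arrays 1 to 3 and 427, 426 and 249 on conventional arrays 1 to 3. All conventional arrays lay above all germ-free arrays. On the log2 scale the groups differed by -1.68 ± 0.30 (SE; adjusted p = 0.016) with all 6 arrays and -1.94 ± 0.24 (adjusted p = 0.000879) without conventional jejunum 3, 3.2-fold and 3.83-fold lower. The labelled call held without conventional jejunum 3 alone (adjusted p = 0.0121) and without germ-free jejunum 3 but was lost when any of the other 4 jejunum arrays was left out (adjusted p of up to 0.103). A second Nfkbiz probe set lay near the floor on most arrays and was not called (adjusted p = 0.995). Of 23 probe sets of NF-kB and microbial sensing genes, 1 fell as labelled and 2 without conventional jejunum 3, Nfkbiz and Pglyrp1, and 0 rose in either.

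Nearly all probe sets for MHC class II, the molecules that present peptides to helper T cells, lay below 0. H2-Aa, the alpha chain of I-A, was at 577, 771 and 613 on germ-free arrays 1 to 3 and 3271, 2862 and 622 on conventional arrays 1 to 3. Conventional arrays 1 and 2 were far above the germ-free arrays, and conventional array 3 lay among them. Germ-free minus conventional, in log2 units, gave -1.47 ± 0.69 (SE; adjusted p = 0.362) with all 6 arrays and -2.24 ± 0.47 (adjusted p = 0.0348) without conventional jejunum 3. H2-DMb1, which helps load peptide, was at 110.4, 141 and 150.1 on germ-free arrays 1 to 3 and 669, 439 and 178 on conventional arrays 1 to 3, with no overlap and conventional array 3 closest to the germ-free level. In log2 terms the difference came to -1.49 ± 0.52 (SE; adjusted p = 0.194) with all 6 arrays and -2.03 ± 0.34 (adjusted p = 0.00722) without conventional jejunum 3. H2-Ab1, the beta chain of I-A, was at 244, 244 and 296 on germ-free arrays 1 to 3 and 666, 625 and 256 on conventional arrays 1 to 3 (adjusted p = 0.432 and 0.104). Cd74, the invariant chain, was at 1183, 1566 and 1316 on germ-free arrays 1 to 3 and 4821, 4380.1 and 1835 on conventional arrays 1 to 3 and missed the threshold in both readings (adjusted p = 0.259 and 0.0931). Of 13 class II probe sets 0 were called by limma as labelled (3 at an unadjusted p under 0.05) and 2 fell without conventional jejunum 3. Of all probe sets tested, 13.1% had an unadjusted p under 0.05 as labelled and 12.1% without conventional jejunum 3. In each reading 12 lay below 0, with medians of -0.87 and -1.12. Neither H2-Aa (adjusted p = 0.282) nor H2-DMb1 (adjusted p = 0.175) passed with 23 arrays. Interferon response genes had 0 of 25 called by limma (3 and 9 at an unadjusted p under 0.05), with 20 below 0 in each reading and medians of -0.47 and -0.57. Igtp, an interferon-induced GTPase, was at 41.1, 41.7 and 46.7 on germ-free arrays 1 to 3 and 232, 98.8 and 65.1 on conventional arrays 1 to 3, without overlap (adjusted p = 0.313 and 0.149).

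Most leukocyte probe sets lay below 0, and a few fell. In bulk tissue, fewer leukocytes and less RNA per leukocyte cannot be told apart. Cyba, a subunit of the NADPH oxidase that epithelial cells also express, was at 368, 611 and 415 on germ-free arrays 1 to 3 and 1308, 1011 and 1083 on conventional arrays 1 to 3. The groups did not overlap. The fitted log2 difference was -1.31 ± 0.26 (SE; adjusted p = 0.0332) with all 6 arrays and -1.34 ± 0.26 (adjusted p = 0.0208) without conventional jejunum 3, 2.49-fold and 2.54-fold lower, and it did not pass with 23 arrays (adjusted p = 0.11). Cd53, a tetraspanin of leukocytes, was at 15.7, 26.3 and 5.7 on germ-free arrays 1 to 3 and 229.7, 93.3 and 105 on conventional arrays 1 to 3, with germ-free arrays at or near the floor. The log2 difference was -2.52 ± 0.56 (SE; adjusted p = 0.0444) with all 6 arrays and -2.68 ± 0.63 (adjusted p = 0.066) without conventional jejunum 3. Lsp1, an actin-binding protein of leukocytes, was at 51.5, 116 and 53 on germ-free arrays 1 to 3 and 201, 158 and 302 on conventional arrays 1 to 3, and Apbb1ip, an adaptor for integrin activation, at 39.1, 49.1 and 54.2 on germ-free arrays 1 to 3 and 100.3, 105 and 160.3 on conventional arrays 1 to 3. A second Lsp1 probe set was not called. Both genes had their highest value on conventional array 3, and both passed as labelled (adjusted p = 0.0415 and 0.0415) but not without it (0.104 and 0.133). Over the 40 pan-leukocyte and phagocyte probe sets, 4 fell as labelled and 1, Cyba, without conventional jejunum 3, with 0 higher in either. In each reading 37 lay below 0, 24 had every germ-free array under every conventional array, and the medians were -0.65 and -0.56. Of all probe sets tested, 8.47% lay wholly below as labelled and 12.9% without conventional jejunum 3. The summed signal of the list was 4999.9, 5434 and 5598 on the germ-free arrays and 9434, 8124 and 10305 on the conventional arrays.

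Immunoglobulin and B cell probe sets lay further below 0, yet 0 of 38 were called by limma in either reading and 16 had an unadjusted p under 0.05 in each. The median log2 difference was -1.27 as labelled and -1.30 without conventional jejunum 3, 32 lay below 0 in each, and 23 and 27 had the germ-free arrays wholly below. Of all probe sets tested, 8.47% and 12.9% lay wholly below in the same readings, and 13.1% and 12.1% had an unadjusted p under 0.05. Igha, the heavy chain of IgA, was at 2141, 2306 and 4019.9 on germ-free arrays 1 to 3 and 7217, 10219 and 5633 on conventional arrays 1 to 3 on its brightest probe set. Jchain, which joins IgA into dimers, was at 383, 354 and 987 on germ-free arrays 1 to 3 and 1429.9, 1851 and 1539.5 on conventional arrays 1 to 3. For both, every germ-free array lay below every conventional array. The log2 differences as labelled were -1.46 ± 1.19 (adjusted p = 0.657) and -1.64 ± 1.02 (adjusted p = 0.534). These wide standard errors come from the spread shared by all 8 groups, not from the jejunum arrays alone. In conventional corpus Igha ran from 84.2 to 6291.4 on this probe set, and Jchain from 36.4 to 1416.5. Pigr, the epithelial receptor that carries IgA, was at 7691, 5231 and 7288 on germ-free arrays 1 to 3 and 8838, 13713 and 9133 on conventional arrays 1 to 3 (adjusted p = 0.776). A probe set named for Ighm, the IgM heavy chain, was at 11.1, 36.2 and 56.8 on germ-free arrays 1 to 3 and 242, 584 and 333 on conventional arrays 1 to 3 (adjusted p = 0.129). Igkv15-103, a kappa light chain segment, lies outside the list. It was at 3, 3.8 and 6.5 on germ-free arrays 1 to 3 and 60.8, 54.8 and 26.7 on conventional arrays 1 to 3. By limma it was called in the second reading (at least 2.72-fold lower, adjusted p = 0.0169). It did not pass as labelled (adjusted p = 0.221) or with 23 arrays (adjusted p = 0.234). Conventional descending colon reached at most 6.4 and conventional corpus at most 8.8, all under the floor. Such floored groups add no spread to the shared estimate, so the p-value of this call cannot be relied on. Of 33 T cell genes listed, 25 were on the array and 10 passed the filter. They had 0 of 11 probe sets called by limma (0 and 2 at an unadjusted p under 0.05). All 11 lay below 0 as labelled and 9 without conventional jejunum 3. Zap70, a kinase of the T cell receptor, was at 36.6, 17.2 and 27.8 on germ-free arrays 1 to 3 and 239.7, 129 and 17.3 on conventional arrays 1 to 3 on 1 probe set (adjusted p = 0.0768 without conventional jejunum 3), while its other probe set was near 0 (adjusted p = 0.972).

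Several called genes fell outside these groups. Ckap4, a membrane protein of the rough endoplasmic reticulum, was at 7.9, 19.6 and 20.4 on germ-free arrays 1 to 3 and 82.6, 83.3 and 94.2 on conventional arrays 1 to 3. Germ-free arrays lay under the floor and conventional arrays were tightly grouped. On the log2 scale the groups differed by -2.03 ± 0.24 (SE; adjusted p = 0.000192) with all 6 arrays and -1.97 ± 0.29 (adjusted p = 0.00325) without conventional jejunum 3. This was at least 4.08-fold lower with all 6 arrays and at least 3.91-fold lower without conventional jejunum 3, and both calls held whichever jejunum array was left out. Ddx6, an RNA helicase of processing bodies, was at 279, 310.4 and 349 on germ-free arrays 1 to 3 and 59.6, 16.9 and 74.3 on conventional arrays 1 to 3 on its called probe set. Germ-free minus conventional, in log2 units, gave 2.78 ± 0.46 (SE; adjusted p = 0.00769) with all 6 arrays and 3.13 ± 0.50 (adjusted p = 0.00528) without conventional jejunum 3. Its other probe sets gave log2 differences of 1.35 ± 0.34 (adjusted p = 0.0904) and 0.00 ± 0.26 (adjusted p = 1) as labelled, so the probe sets disagree. Csnk2a1, a catalytic subunit of casein kinase 2, was at 136, 179 and 195 on germ-free arrays 1 to 3 and 59.7, 51.4 and 55.1 on conventional arrays 1 to 3 (3.04-fold higher, adjusted p = 0.00256 as labelled), whereas its other 3 probe sets were not called. Nfatc3, a calcium-regulated transcription factor, was at 379.9, 419.9 and 502 on germ-free arrays 1 to 3 and 159, 170.2 and 124 on conventional arrays 1 to 3 (2.88-fold higher, adjusted p = 0.0039).

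Urod, an enzyme of heme synthesis, fell on 1 probe set, at 20.5, 11.9 and 27.2 on germ-free arrays 1 to 3 and 80.3, 74.4 and 146 on conventional arrays 1 to 3 (adjusted p = 0.000599 as labelled), and lay above 0 on its other probe set, where the log2 difference was 0.35 ± 0.24 (adjusted p = 0.58). Bach1, a repressor released by heme, was at least 4.84-fold higher on 1 probe set (adjusted p = 0.0332) and not on the other (adjusted p = 0.965). Fst, the activin antagonist follistatin, was at 83.8, 139 and 83.3 on germ-free arrays 1 to 3 and 8.4, 17.5 and 8.5 on conventional arrays 1 to 3. All conventional arrays lay under the floor and all germ-free arrays above it (at least 4.67-fold higher, adjusted p = 0.0103 as labelled and 0.0291 without conventional jejunum 3). With 23 arrays neither Fst (adjusted p = 0.0533) nor Bach1 (adjusted p = 0.127) passed. A probe set named for Sprr2c-ps, of the small proline-rich family of epithelial barrier proteins, was at 79.8, 326 and 127 on germ-free arrays 1 to 3 and 552, 969 and 995 on conventional arrays 1 to 3 (5.44-fold lower, adjusted p = 0.0248). Of 14 probe sets of that family, 2 fell as labelled and 1 without conventional jejunum 3, with medians of -0.40 and -0.47. Sprr2e, of the same family, was at 2025, 2990.0 and 2223 on germ-free arrays 1 to 3 and 4819, 7805 and 6994 on conventional arrays 1 to 3 (adjusted p = 0.0415 as labelled and 0.0834 without conventional jejunum 3).

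Other calls held in 1 reading or lay close to the threshold in both. Ago2, the slicing protein of RNA silencing, was at 332, 576 and 321 on germ-free arrays 1 to 3 and 114, 133 and 86.1 on conventional arrays 1 to 3. It rose as labelled (adjusted p = 0.0348) and missed the threshold without conventional jejunum 3 (0.0873). With Ddx6, it made 2 of 19 probe sets for RNA silencing and decay that rose as labelled, beside 0.221% of all probe sets tested. Without conventional jejunum 3 only Ddx6 rose, 1 of the 19, beside 0.288% of all. Wnk1, a kinase that governs chloride transport, was at 73.3, 101 and 69.4 on germ-free arrays 1 to 3 and 24.9, 19 and 18.9 on conventional arrays 1 to 3 on the called 1 of its 3 probe sets, and Cflar, an inhibitor of caspase-8, at 116, 148 and 171 on germ-free arrays 1 to 3 and 63, 49.1 and 27.6 on conventional arrays 1 to 3. Both rose as labelled (3.58-fold and 3.25-fold, adjusted p = 0.0415 for each) and not without conventional jejunum 3 (adjusted p = 0.0937 and 0.135). Plat, the tissue plasminogen activator, was at 123, 212 and 206 on germ-free arrays 1 to 3 and 78.4, 54.1 and 116 on conventional arrays 1 to 3. It passed in the second reading only (2.69-fold higher, adjusted p = 0.0289; 0.0733 as labelled), as did Mau2, a cohesin loader, at 159, 161 and 162 on germ-free arrays 1 to 3 and 59.8, 17.4 and 94.5 on conventional arrays 1 to 3 (adjusted p = 0.04; 0.105 as labelled). Among lower genes, Septin7, a filament-forming GTPase, was at 189.7, 268 and 546 on germ-free arrays 1 to 3 and 776, 683 and 807 on conventional arrays 1 to 3 and fell in both readings (adjusted p = 0.0415 and 0.0493). Actn1, an actin cross-linker, was at 40.1, 65.1 and 60.6 on germ-free arrays 1 to 3 and 128, 122 and 171 on conventional arrays 1 to 3 and also fell in both (adjusted p = 0.0231 and 0.04), though its other 2 probe sets were not called. Cops2, a subunit of the COP9 signalosome, was at 22.8, 19.9 and 46.9 on germ-free arrays 1 to 3 and 74.7, 88.8 and 112 on conventional arrays 1 to 3 (adjusted p = 0.0415 as labelled, 0.0812 without conventional jejunum 3), and its other probe set was not called. Ptk6, an epithelial tyrosine kinase, was at 53.2, 133 and 104 on germ-free arrays 1 to 3 and 365, 199.9 and 88.3 on conventional arrays 1 to 3 (adjusted p = 0.0493 without conventional jejunum 3, 0.355 as labelled). With 23 arrays none of Plat, Mau2, Septin7, Actn1 and Ptk6 passed (adjusted p = 0.0521, 0.0883, 0.164, 0.127 and 0.282). Eif2s3y, a translation factor gene on the Y chromosome, was at 62, 78.1 and 141 on germ-free arrays 1 to 3 and 185, 193 and 178 on conventional arrays 1 to 3. It fell as labelled (2.1-fold, adjusted p = 0.0415) but not without conventional jejunum 3 (adjusted p = 0.08). Whether this probe set also binds RNA of related genes was not tested, so its signal on all 6 arrays does not give the sex of the mice.

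Tff2, a trefoil peptide of gastric mucus, had the largest difference without conventional jejunum 3. It was at 1243, 2597 and 1793 on germ-free arrays 1 to 3 and 2.3, 48.9 and 1253 on conventional arrays 1 to 3. The germ-free arrays and conventional array 3 were high and conventional arrays 1 and 2 near or under the floor. In log2 terms the difference came to 4.04 ± 1.39 (SE; adjusted p = 0.193) with all 6 arrays and 5.80 ± 0.99 (adjusted p = 0.00722) without conventional jejunum 3, or 55.8-fold higher in the second reading, and with 23 arrays it did not pass (adjusted p = 0.11). In conventional corpus Tff2 ran from 6433 to 7994. Tff1, another gastric trefoil peptide, was at 1297, 1019.5 and 5494 on germ-free arrays 1 to 3 and 429.8, 432 and 371 on conventional arrays 1 to 3. On germ-free arrays 1 and 2 Tff2 was high while Atp4b lay under the floor. Of the 16 gastric gland probe sets, 12 lay above 0 and 4 below without conventional jejunum 3. Germ-free arrays lay wholly above for 6 of them and wholly below for 0, beside 11.0% and 12.9% of all probe sets. The part of gastric tissue in the Tff2 values was not tested. St6gal1, a sialyltransferase, was at 38.1, 35.8 and 48.8 on germ-free arrays 1 to 3 and 137, 139 and 496 on conventional arrays 1 to 3. It was 3.41-fold lower without conventional jejunum 3 (adjusted p = 0.00748), and did not pass as labelled (adjusted p = 0.0776) or with 23 arrays (adjusted p = 0.314). Muc13, a membrane mucin, was at 1312, 1264 and 1161 on germ-free arrays 1 to 3 and 2582, 2620.2 and 1534 on conventional arrays 1 to 3. It was 2.09-fold lower without conventional jejunum 3 (adjusted p = 0.00441), and did not pass as labelled (adjusted p = 0.383) or with 23 arrays (adjusted p = 0.393). For both genes all conventional arrays lay above all germ-free arrays on these probe sets, and a second probe set of each was not called.

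The difference between germ-free and conventional mice in the jejunum was also set against the mean of the same difference in corpus, descending colon and rectum. As labelled, 2 probe sets passed, 0.0221% of those tested. Slc5a11 had a jejunum difference that exceeded that of the other regions by 2.77 ± 0.34 (SE; adjusted p = 0.000735), where the mean over the other regions was -0.06. Ckap4 had -1.71 ± 0.27 (adjusted p = 0.0196). Without the 3 libraries 8 passed, 0.0886%: Slc5a11, Gsta4, Reg3a and Mettl26, which encodes a methyltransferase-like protein, were more positive in the jejunum, and Saa2, Reg3g, Dmbt1 and Nfkbiz more negative. The difference of differences was -5.03 ± 0.64 for Saa2 and -3.21 ± 0.54 for Reg3g, beside means over the other regions of 1.08 and 0.22. None of the immunoglobulin list was among them. Igha had a mean difference of -1.99 over the other regions and -1.67 ± 1.33 in the jejunum in the same fit.

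**Figure D5:**
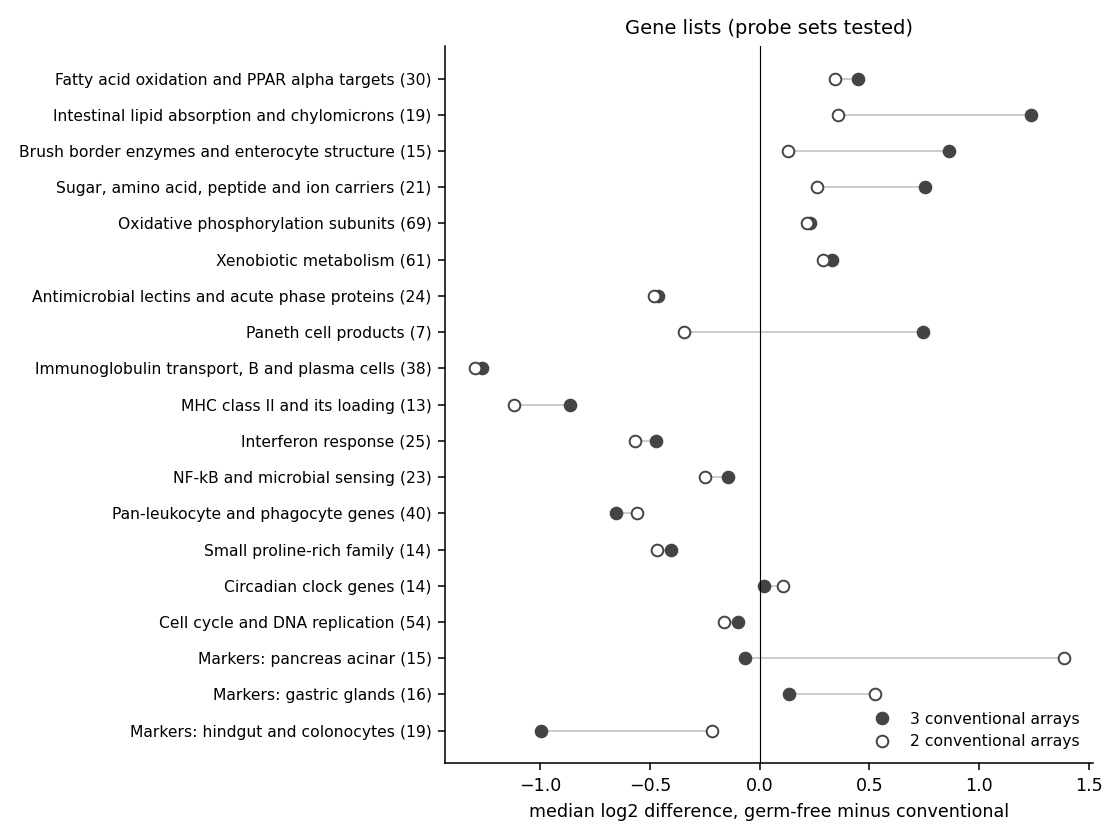
Median log2 difference, germ-free minus conventional, of the tested probe sets of 19 gene lists, with all 6 arrays (filled) and without conventional jejunum 3 (open), and the number of probe sets in brackets. Leukocyte, immunoglobulin and class II lists lie below 0 in both readings, while the Paneth and acinar lists change side.

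Lists of cholesterol synthesis, cell cycle, crypt stem cells, tight junctions, gut hormones, enteric neurons and mast cells had no called probe set by limma in either reading, with 0 to 6 per list at an unadjusted p under 0.05. Their medians lay between -0.16 and 0.19. Of the acinar pancreas probe sets 0 were called by limma (0 and 2 at an unadjusted p under 0.05), but 14 of 15 lay above 0 without conventional jejunum 3, with a median of 1.39. Gastric gland probe sets had medians of 0.13 as labelled and 0.53 without conventional jejunum 3, and -0.01 as labelled without germ-free jejunum 3. Hindgut probe sets had -0.998 and -0.22. Aqp8, a colonic water channel, was at 53.8, 29.8 and 66.7 on germ-free arrays 1 to 3 and 22, 62.8 and 1557 on conventional arrays 1 to 3. The part of acinar or gastric tissue in any of the differences above was not tested.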

How the data were processed

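The authors deposited 1 table of linear signal intensities for 24 Affymetrix MGU74Av2 arrays, 3 for each of 4 gut regions in germ-free and in conventional mice. The algorithm behind the intensities was not given in the sources used here. The mean of the middle 96% of signals was 199.449 to 200.057 on every array, so the deposited intensities had been scaled to a common level. No further scaling was applied. Of 12488 probe sets 66 were controls. Signals under 21.2, the 25th percentile, were set to it, log2 was taken, and a probe set was kept if 3 or more arrays exceeded 51.5, the 40th percentile. An array gives no count depth, and the number of arrays limits the precision.

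A model of 8 group means was run in limma 3.58.1 under R 4.3.3 (lmFit and eBayes with an intensity trend), so that every comparison shares 1 estimate of the spread, and p-values were adjusted by Benjamini-Hochberg over 9033 probe sets. A call is an adjusted p under 0.05. The fit without the 3 libraries whose markers oppose their labels used 21 arrays. Genes were named from the platform annotation: 10855 probe sets had 1 gene, 396 several and 1237 none. Members, gene lists and tests were chosen with earlier results of these data known. The rule for named genes took the leading called genes in each direction and reading that had no overlap between groups, the leading genes of each list, the genes whose jejunum difference stood apart from the other regions, and a short fixed set. The other probe sets of a named gene were then added. On simulated data the labelled design recovered 35 of 100 probe sets changed by 1 on the log2 scale and 81 of 100 changed by 2, with 6 false calls. Without the 3 libraries it recovered 38 and 80, with 2 false calls. The simulation drew independent normal noise, with no floor and no shift of a whole array, so its counts may not carry over to these data. Alternatives covered scaling, floor, filter, trend, arrays in the fit, replicate blocks (statmod 1.5.0) and single arrays left out. Replicate numbers were taken from the titles. Deviations of same-numbered germ-free and conventional jejunum arrays correlated at 0.222, 0.0188 and 0.0591, and these were not treated as pairs. That check cannot tell whether same-numbered arrays of different regions share a mouse.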

Additional observations from a re-analysis of the deposited data

Results flagged for a closer look

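The flagged probe sets are those whose difference between germ-free and conventional mice in the jejunum differed from the mean difference in corpus, descending colon and rectum by limma at an adjusted p under 0.05. With all 24 arrays, the difference of differences was 2.77 for Slc5a11 and -1.71 for Ckap4. Without the 3 libraries whose markers opposed their labels, the values on the positive side were 2.61 for Slc5a11, 2.25 for Gsta4, 1.47 for Reg3a and 1.32 for Mettl26. On the negative side they were -5.03 for Saa2, -3.21 for Reg3g, -2.16 for Dmbt1 and -1.94 for Nfkbiz. Slc5a11 passed in both, and Ckap4 had -1.66 without the 3 libraries (adjusted p = 0.0691). Groups of 3 arrays were too small for a test of single outlying arrays.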

How the results depend on the processing

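With all 6 arrays 42 probe sets were called. The count was 23 under quantile normalization, 27 with status and replicate number as a random block, and 0 by limma in a fit of the 6 jejunum arrays alone, where 868 had an unadjusted p under 0.05. Leaving out single arrays gave 10 to 265, lowest without conventional jejunum 3 and highest without germ-free jejunum 3; the other conventional arrays gave 22 (array 1) and 17 (array 2), the other germ-free arrays 12 and 19. Without conventional jejunum 3, where 51 were called, the count was 90 with the floor at the 40th percentile, 0 with jejunum arrays alone (784 at an unadjusted p under 0.05), 10 with 23 arrays, and 13 to 272 with 1 more jejunum array left out, lowest without conventional jejunum 2 and highest without germ-free jejunum 3. It was 22 without conventional jejunum 1 and 29 without germ-free jejunum 1. Scaling moved the split of calls: 20 higher and 22 lower became 19 and 9 with array medians equalised and 14 and 9 under quantile normalization. The 2 probe sets that stood apart from the other regions as labelled became 8 with the floor at the 40th percentile, 7 with no filter, 0 by limma with the filter at the 60th percentile (831 at an unadjusted p under 0.05), 8 with a fixed replicate block, 4 with the random block, and 1 to 192 with single arrays left out. The 8 found without the 3 libraries became 5 and 22 with the floor at the 10th and 40th percentile, 23 with no filter, and 3 to 163 with single arrays left out. Both highest counts came without germ-free jejunum 3. With the replicate number as a fixed block, 48 were called as labelled and 47 without conventional jejunum 3. This fixed block also joins germ-free with conventional arrays, which cannot share a mouse, and it was not used in the main fits. Whether same-numbered arrays of the same status share a mouse was not given. The random block, which joins arrays of the same status and number, gave 27 calls as labelled and 48 without conventional jejunum 3.

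Directions turned for 12 named probe sets, none of them called in the reading concerned. As labelled, leaving out single arrays moved Reg3g between -2.99 and 0.51 on 1 probe set and between -2.65 and 1.67 on the other, where the floor at the 40th percentile gave -0.26. Reg3b ran between -2.82 and 0.88 and between -1.15 and 1.66, and Adh1 between -0.14 and 2.35. Second probe sets of called genes ran between -0.48 and 0.34 for Nfkbiz (0.014 with the floor at the 40th percentile), between -0.63 and 0.67 for Bach1 and between -0.15 and 0.28 for Ddx6. The second Zap70 probe set ran between -0.23 and 0.24, with 0.072 for equalised medians, 0.076 for quantile normalization and 0.033 for the higher floor. Angptl4 ran between -0.17 and 0.12 on 1 probe set, with 0.052 for equalised medians and 0.032 for quantile normalization, and between -0.15 and 0.82 on another. Without conventional jejunum 3 the ranges were -0.80 to 0.24 for Nfkbiz (0.014 with the higher floor), -0.31 to 0.16 for Zap70 and -0.0048 to 0.48 for the remaining Angptl4 probe set, not described above. The cause was not tested. Over all values of named probe sets as labelled, the turned ones included, 402 of 504 kept direction and call when an array was left out and 747 of 828 under the other alternatives. In the second reading these were 338 of 420 and 797 of 912. With 3 arrays or fewer per group, changes of 1 on the log2 scale were often missed on simulated data.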

Other observations

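Of 14 circadian clock probe sets 0 were called by limma in either reading (3 as labelled and 5 without conventional jejunum 3 at an unadjusted p under 0.05, beside 13.1% and 12.1% of all probe sets). In each reading 7 lay above 0 and 7 below, with medians of 0.018 and 0.105. The 4 genes below were picked after their values were seen. Nr1d1, a repressor of the clock, was at 646, 270.2 and 418 on germ-free arrays 1 to 3 and 128, 214 and 276 on conventional arrays 1 to 3, and Tef, a clock output factor, at 247, 94.8 and 131 on germ-free arrays 1 to 3 and 31, 45.3 and 148 on conventional arrays 1 to 3. Arntl, which Nr1d1 represses, was at 158, 127 and 199 on germ-free arrays 1 to 3 and 236, 273 and 391 on conventional arrays 1 to 3, and Cry1 at 194, 216 and 171 on germ-free arrays 1 to 3 and 344, 403 and 241 on conventional arrays 1 to 3. Without conventional jejunum 3, germ-free arrays lay wholly above conventional arrays for Nr1d1 and Tef and wholly below for Arntl and Cry1. As labelled the groups overlapped for Nr1d1 and Tef. By limma none of these passed in either reading, with adjusted p of 0.0637 for Nr1d1, 0.185 for Tef, 0.3 for Arntl and 0.219 for Cry1 without conventional jejunum 3. As the hour of dissection was not given in the sources used here, its part in these values was not tested.

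Cldn2, a claudin that forms cation pores, was at 21.7, 185 and 24.1 on germ-free arrays 1 to 3 and 233, 511 and 327 on conventional arrays 1 to 3. Germ-free arrays 1 and 3 were near the floor, germ-free array 2 was close to the lowest conventional array, and the difference was not called (adjusted p = 0.0993 as labelled). Sqle, an enzyme of cholesterol synthesis, was at 321, 583 and 404 on germ-free arrays 1 to 3 and 813, 967 and 758 on conventional arrays 1 to 3, without overlap (adjusted p = 0.217).

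The library labelled conventional rectum 1, outside the jejunum groups, correlated at 0.966 with conventional jejunum 1 and at 0.858 with conventional jejunum 3 on the log2 scale. Conventional jejunum 3 correlated at 0.956 and 0.963 with conventional descending colon 1 and 2. Each library stayed under its own label.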
